A study of Rattus norvegicus with 6 samples.

Results

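The miR-23/27/24 and miR-26 families were followed in plasma exosomes of rats that had received melatonin or the solvent alone. Their 7 guide-strand miRNAs were taken by name from the deposited table, and all 7 were found among its 420 mature miRNAs and were above 0 in every library. Exosomes are small vesicles that cells release into body fluids with part of their RNA. Adult male Sprague-Dawley rats of 200 to 250 g were injected intraperitoneally for 7 days with 5% DMSO in PBS (EXO1, 3 libraries) or with melatonin, the pineal hormone, at 10 mg/kg in that solvent (EXO2, 3 libraries), so that DMSO was shared by both groups. Exosomes were collected on day 8, and their small RNA was sequenced. The labels do not state whether each library came from its own rat or from a pool, so the p-values below reflect variation between libraries that may be technical. The solvent is PBS in the labels and saline in the methods, and the isolation is a centrifugation in the labels and a commercial kit in the methods.

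MicroRNAs of the miR-23, miR-27 and miR-24 families are cut from shared transcripts of a pair of paralogous clusters, each of which encodes 1 member of every family. They are best known from endothelial cells, where they take part in angiogenesis, and from T cells, while miR-27 also represses genes of lipid metabolism and fat cell formation. miR-26 is abundant in many tissues, lies in introns of genes of the Ctdsp phosphatase family and represses the histone methyltransferase Ezh2. A miRNA finds its targets mainly through its seed, bases 2 to 8, so paralogs with a shared seed are expected to share most targets.

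The 7 sequences are shown because the a and b paralogs can be told apart in reads by very few bases. All 7 were matched by name in the RefSeq rat table (GRCr8), and the seed is in capitals.
rno-miR-23a-3p: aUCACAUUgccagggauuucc
rno-miR-23b-3p: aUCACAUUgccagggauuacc
rno-miR-27a-3p: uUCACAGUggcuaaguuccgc
rno-miR-27b-3p: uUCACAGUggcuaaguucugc
rno-miR-24-3p: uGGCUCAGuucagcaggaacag
rno-miR-26a-5p: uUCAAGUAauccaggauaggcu
rno-miR-26b-5p: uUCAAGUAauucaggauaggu

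These 7 miRNAs carried 4 seeds. With positions counted from 1 at the 5′ end and the base of the a paralog written first, miR-23a-3p and miR-23b-3p differed only by U19A, and miR-27a-3p and miR-27b-3p only by C19U. miR-26a-5p and miR-26b-5p differed by C11U and C21U over their shared length, and miR-26a-5p had 1 base more (22 against 21). Since 1 base near the 3′ end separates the miR-23 and the miR-27 paralogs, reads that are short or carry an error there can be split between them in counting, and the a to b ratios of these families are uncertain to that extent. In RefSeq the a cluster (Mir23a, Mir27a and Mir24-2) spans 389 bases on chromosome 19 (chr19:40859455-40859843, minus strand, GRCr8), and no other annotated gene covers it. The b cluster (Mir23b, Mir27b and Mir24-1) spans 814 bases on chromosome 17 (chr17:1818669-1819482, minus strand) inside the gene Aopep. Mir26a lies on chromosome 8 (chr8:127633048-127633137, plus strand) inside Ctdspl, and Mir26b on chromosome 9 (chr9:83425709-83425793, plus strand) inside Ctdsp1. miR-24-3p is produced from both clusters, and its 2 rows in the deposited table held the same values in all libraries, so its reads cannot be assigned to a cluster and 1 of these rows was used.

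The libraries held 2279500 to 5868405 miRNA reads in EXO1 and 3033119 to 4999379 in EXO2. Values are given as normalized CPM, the deposited read number scaled to a library total and a composition factor of each library (0.264, 1.86 and 1.52 in EXO1 replicates 1, 2 and 3, and 1.38, 1.04 and 0.941 in EXO2). The total in that scaling runs over all 468 rows, repeated names included (2491826 to 5973693 reads), and is therefore above the totals just given, which count each mature miRNA once. The muscle miRNA miR-1b took 80.9% of the reads of EXO1 replicate 1 and 0.598% to 22.5% elsewhere. The list of 9 measured erythrocyte miRNAs took 7.86% to 23.9% of the reads in EXO1 and 57.6% to 67.7% in EXO2. In EXO1 replicate 3, 14 vascular and mesenchymal miRNAs took 23.02% of the reads, against 0.996% to 5.53% in the other libraries.

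miR-26a-5p stood highest of the 7 in every library. Its levels were 27419, 9783 and 36343 normalized CPM in EXO1 replicates 1, 2 and 3 and 10385, 10512 and 9047 in EXO2 replicates 1, 2 and 3. EXO1 replicates 1 and 3 were thus well above all other libraries, whereas EXO1 replicate 2 lay inside the EXO2 range. By number of reads it ranked 6th to 9th in the EXO1 libraries and 11th to 13th in the EXO2 libraries. Within EXO2 it was among the steadiest miRNAs, since its SD of 0.12 on the log2(normalized CPM + 1) scale was undercut by 1.31% of the 153 miRNAs with at least 10 normalized CPM in every library. Within EXO1 its SD was 0.997. The group means were 24515 ± 13516 and 9981 ± 812 normalized CPM (SD, n = 3 each).

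miR-26b-5p, the second member of that family, had levels of 7038, 2583 and 7866 in EXO1, against 2845, 3102 and 3971 in EXO2. EXO1 replicate 2 was the lowest of all 6 libraries and the other EXO1 libraries were the highest, so the pattern of miR-26a-5p recurred, and the groups overlapped.

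miR-27b-3p, which is encoded in the b cluster, was the most abundant of the cluster miRNAs. It had levels of 3899, 4356 and 20047 in EXO1, against 3632, 4964 and 3108 in EXO2. Only EXO1 replicate 3 left the narrow range of the other 5 libraries. miR-27a-3p, its paralog from the a cluster, had 876, 1742 and 3783 in EXO1, against 1498, 1249 and 841 in EXO2, with EXO1 replicate 3 again on top and EXO1 replicate 1 among the lowest.

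miR-24-3p, which is known to repress cell cycle genes, had levels of 1102, 1242 and 2365 in EXO1, against 1342, 823 and 778 in EXO2. miR-23a-3p, often used as a stable reference in plasma, had 802, 802 and 1977 in EXO1, against 953, 727 and 859 in EXO2. miR-23b-3p had 558, 569 and 2215 in EXO1, against 654, 664 and 1005 in EXO2. For these 3 miRNAs EXO1 replicate 3 was above every other library, and the other EXO1 libraries lay within or near the range of EXO2.

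**Figure D1:**
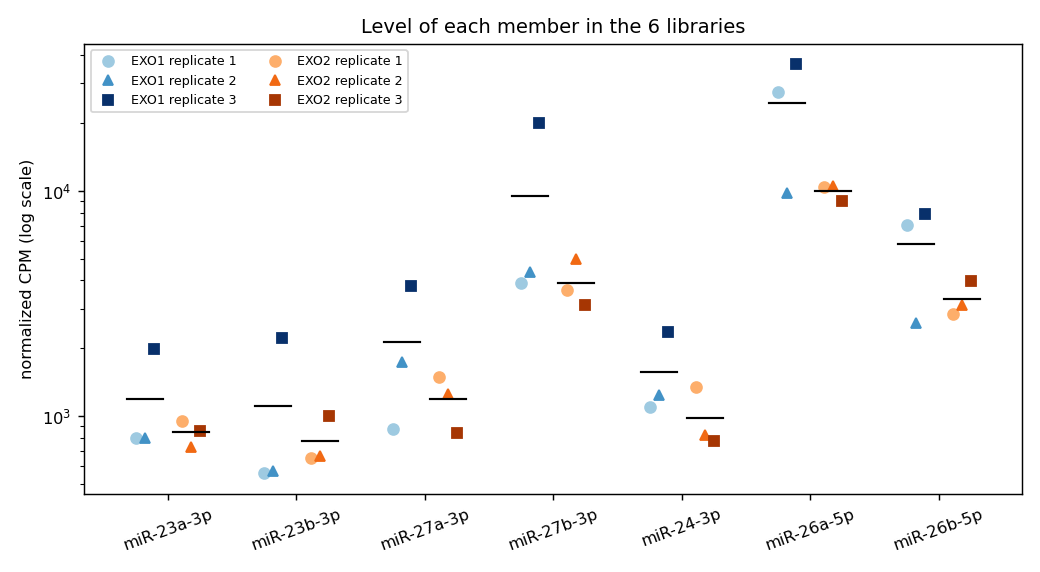
Normalized CPM (log axis) of the 7 miRNAs in the 6 libraries. Points are libraries, EXO1 in blue and EXO2 in orange, and black lines are group means. EXO1 replicate 3 (dark blue square) is the highest point for each miRNA, for example 20047 for miR-27b-3p against at most 4964 elsewhere.

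Ranked by the mean over all libraries on the log2 scale, the order was miR-26a-5p, miR-27b-3p, miR-26b-5p, miR-27a-3p, miR-24-3p, miR-23a-3p and miR-23b-3p. These miRNAs are of nearly equal length (21 or 22 bases), and the order is one of reads, not of molecules. miR-26a-5p exceeded miR-27b-3p, and miR-26b-5p exceeded miR-27a-3p, in 6 of 6 libraries. miR-27b-3p exceeded miR-26b-5p in 4, miR-27a-3p exceeded miR-24-3p in 5, miR-24-3p exceeded miR-23a-3p in 5 and miR-23a-3p exceeded miR-23b-3p in 4, so these neighbours changed places between libraries.

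EXO1 replicate 3 was the highest library for 7 of the 7 miRNAs. Its value divided by the mean of EXO1 replicates 1 and 2 was 1.64 for miR-26b-5p, 1.95 for miR-26a-5p, 2.02 for miR-24-3p, 2.46 for miR-23a-3p, 2.89 for miR-27a-3p, 3.93 for miR-23b-3p and 4.86 for miR-27b-3p. Over the 153 miRNAs at 10 or more in every library the median of this quotient was 0.874. Within each family of the clusters, the b paralog was raised more than the a paralog in this library. The summed level of the 14 vascular and mesenchymal miRNAs was 4.46 times higher there as well (143411 normalized CPM against 27295 to 37050 in the other EXO1 libraries and 14240 to 19585 in EXO2, with miR-497-5p at 0 in some library), that of the 3 hepatocyte miRNAs 4.22 times and that of the 4 endothelial miRNAs 2.36 times. The other lists were not raised there, with a quotient of 0.914 for platelet and leukocyte, 0.346 for erythrocyte and 0.00356 for muscle miRNAs. The part of these cell types in the levels of the 7 miRNAs was not tested, and vesicles from more cells cannot be told apart from more RNA per vesicle.

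The 7 miRNAs together took 1.12%, 4.27% and 12.0% of all reads in EXO1, against 3.17%, 2.46% and 1.97% in EXO2. The 95% Wilson interval of the lowest share was 1.11% to 1.13%, so counting error was small beside the spread between libraries. These shares overlapped between the groups (2-sided exact permutation test, p = 0.5, n = 3 each). When reads of the erythrocyte and muscle lists were left out of the total, the shares were 11.7%, 8.08% and 13.7% in EXO1, against 7.71%, 7.19% and 6.26% in EXO2. Every EXO1 library was then above every EXO2 library, with means of 11.1% ± 2.83 and 7.05% ± 0.731 (SD, n = 3 each), and the exact permutation test gave p = 0.1, the smallest possible with 3 libraries a group. This separation depends on the choice of total. The lists left out were chosen with earlier results of these data known, and the vascular and mesenchymal list stayed in. How many other miRNAs separate under the same total was not tested. Among reads of the 7, the miR-26 pair held 58.7% to 82.6%, with 82.6% in EXO1 replicate 1 and at most 66.4% elsewhere. The miR-27 pair held 11.5% in that library and 20.1% to 31.9% in the others, the miR-23 pair 3.26% to 9.50% and miR-24-3p 2.64% to 6.30%.

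**Figure D2:**
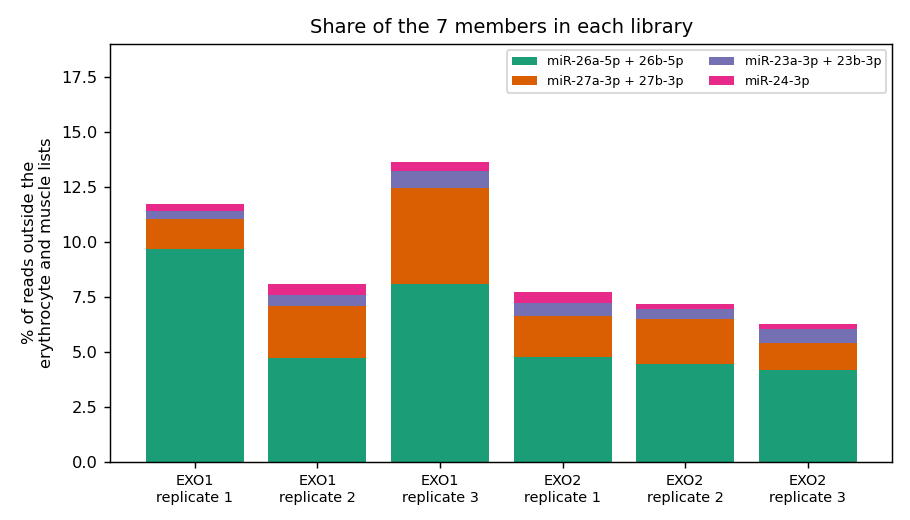
Stacked bars give, for each library, the reads of the miR-26, miR-27, miR-23 and miR-24 families as a percentage of all miRNA reads outside the erythrocyte and muscle lists. The totals are 8.08% to 13.7% in EXO1, against 6.26% to 7.71% in EXO2, and the green miR-26 part is the largest in each bar.

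The comparison of EXO2 with EXO1 asked whether melatonin changed the levels of these miRNAs. All 7 had lower group means in EXO2, but none passed a test. On the log2(normalized CPM + 1) scale the fold changes in limma were -1.10 for miR-26a-5p (standard error 0.61, adjusted p = 0.381), -0.68 for miR-26b-5p (0.54, adjusted p = 0.490), -0.87 for miR-27b-3p (0.63, adjusted p = 0.461), -0.62 for miR-27a-3p (0.57, adjusted p = 0.539), -0.64 for miR-24-3p (0.51, adjusted p = 0.490), -0.36 for miR-23a-3p (0.52, adjusted p = 0.702) and -0.23 for miR-23b-3p (0.59, adjusted p = 0.840). Their median was -0.64, close to the median of -0.56 over all 410 miRNAs tested, of which 62.4% had negative values. That closeness rests on low miRNAs. Over the 256 miRNAs at 10 or more normalized CPM in at least 3 libraries, the median was -0.055, while that of the 7 stayed at -0.64. No miRNA of the 410 passed an adjusted p of 0.05 (0%), and at a fold change over 1.5 with an unadjusted p under 0.05, the thresholds of the methods, 54 of 410 (13.2%) passed and 0 of the 7 did. At an unadjusted p under 0.05 the counts were 54 of 410 and 0 of the 7. With each miRNA's own variance 1 miRNA passed an adjusted p of 0.05, and 2 did without EXO1 replicate 1, none of them among the 7. The groups did not overlap for 86 of the 410 miRNAs (21%), again with 0 of the 7 among them.

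The size of these differences depended on single EXO1 libraries. Without EXO1 replicate 3 the log2 fold changes were 0.069 for miR-23a-3p and 0.43 for miR-23b-3p, so their direction turned, and they were -0.086 for miR-27a-3p, -0.11 for miR-27b-3p, -0.30 for miR-24-3p, -0.72 for miR-26a-5p and -0.38 for miR-26b-5p. Without EXO1 replicate 2, miR-26a-5p at -1.66 and miR-26b-5p at -1.18 passed the thresholds of the methods, as did 55 of all 366 miRNAs tested then. Without EXO1 replicate 1, miR-27a-3p at -1.14 did, as did 103 of 394. With values scaled by library totals only, miR-23b-3p stood at 0.079 and the other 6 between -0.79 and -0.055, while the median over all miRNAs moved from -0.56 to -0.43. The smallest adjusted p of any of the 7 was 0.186 to 0.724 over all alternatives in limma.

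**Figure D3:**
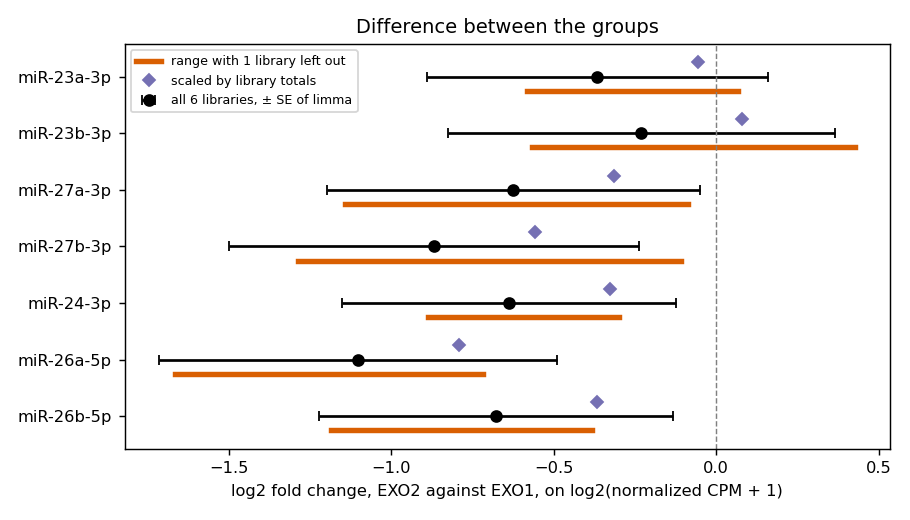
log2 fold changes of EXO2 against EXO1 on log2(normalized CPM + 1). Black points with bars are the values of limma with 1 standard error from all 6 libraries, orange lines the range when 1 library is left out, and purple diamonds the values after scaling by library totals. miR-23a-3p and miR-23b-3p cross 0 when 1 library is left out, and the other 5 stay below it.

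Ratios within a library do not depend on its scaling, so paralogs and cluster mates were compared in this way over 9 pairs. miR-26a-5p was read 3.90, 3.79 and 4.62 times as often as miR-26b-5p in EXO1 replicates 1, 2 and 3 and 3.65, 3.39 and 2.28 times in EXO2. It exceeded its paralog in 6 of 6 libraries, 3.53-fold on geometric average. Every EXO2 ratio lay below every EXO1 ratio, most of all in EXO2 replicate 3. The mean log2 ratio was 2.03 ± 0.16 in EXO1 and 1.61 ± 0.37 in EXO2 (SD, n = 3 each), a difference of -0.42 (2-sided exact permutation test, p = 0.1, the smallest possible, and adjusted p = 0.788 over the 9 pairs), and it was -0.22 without EXO2 replicate 3.

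miR-27a-3p was read less often than miR-27b-3p in 6 of 6 libraries. The ratio of a to b was 0.225, 0.400 and 0.189 in EXO1, against 0.413, 0.252 and 0.271 in EXO2. The b paralog therefore made up 70.8% to 84.1% of the miR-27 reads, and the share was highest in EXO1 replicate 3. The groups overlapped, with a difference in mean log2 ratio of 0.24 (exact permutation test, p = 0.5, adjusted p = 0.788). It was 0.020 without EXO1 replicate 3, 0.023 without EXO2 replicate 1 and 0.56 without EXO1 replicate 2.

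The miR-23 paralogs were close to balance. The ratio of miR-23a-3p to miR-23b-3p was 1.44, 1.41 and 0.892 in EXO1, against 1.46, 1.10 and 0.855 in EXO2. The b paralog was the more abundant in EXO1 replicate 3 and EXO2 replicate 3, the a paralog in the other 4 libraries. The ratio thus covered nearly the same range in both groups. The mean log2 ratio over the 6 libraries was 0.22 ± 0.35 (SD), which the exact sign-flip permutation test did not separate from balance (p = 0.219, adjusted p = 0.219).

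Within the b cluster, miR-23b-3p was read far less often than miR-27b-3p. The ratio was 0.143, 0.131 and 0.110 in EXO1, against 0.180, 0.134 and 0.323 in EXO2, with EXO2 replicate 3 apart from the others. The difference in mean log2 ratio between the groups was 0.64 (exact permutation test, p = 0.2, adjusted p = 0.788) and 0.28 without EXO2 replicate 3. Within the a cluster the miRNAs were read more evenly. The ratio of miR-23a-3p to miR-27a-3p was 0.916, 0.460 and 0.523 in EXO1, against 0.636, 0.582 and 1.02 in EXO2, with EXO1 replicate 1 and EXO2 replicate 3 near 1.

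miR-24-3p, the product of both clusters, stayed near miR-27a-3p and miR-23a-3p, with mean log2 ratios over the 6 libraries of -0.28 ± 0.38 and 0.31 ± 0.28 (SD), and was 0.53 ± 0.61 above miR-23b-3p. Against miR-27b-3p it lay at -2.12 ± 0.60, or 0.229-fold on geometric average. The sign-flip permutation test, whose smallest p over 6 libraries is 0.031, gave this p for 4 of the 9 pairs. They were those of miR-26a-5p with miR-26b-5p and of miR-27b-3p with miR-27a-3p, miR-23b-3p and miR-24-3p. The adjusted p of that test was 0.0703 for each. It was 0.0402 when both identical rows of miR-24-3p were summed, but that sum counts the same reads 2 times and is no support. No pair passed the comparison between the groups, with adjusted p from 0.788 to 1 by the exact permutation test.

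**Figure D4:**
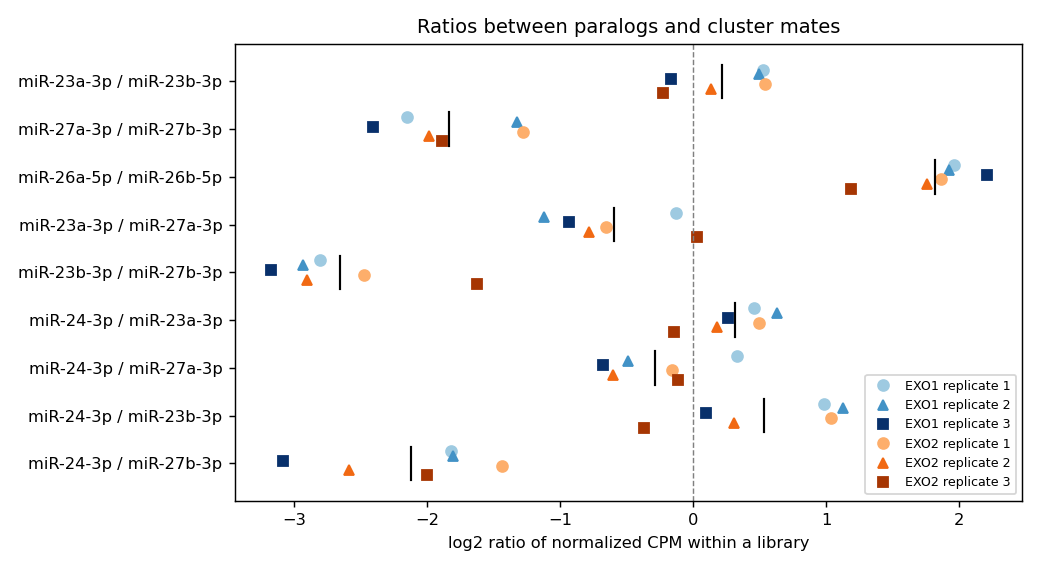
log2 ratio of normalized CPM between 2 miRNAs of the same library for 9 pairs. Points are the 6 libraries (EXO1 blue, EXO2 orange), black lines their mean, and the dashed line marks equal values. The miR-26a-5p to miR-26b-5p ratio is above 0 and the 3 ratios with miR-27b-3p in the denominator are below 0 in all 6 libraries.

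The other arms of the hairpins were read little, except for the 5′ arm of Mir24-2 and, in some libraries, that of Mir24-1. Of the reads of miR-24-1-5p and miR-24-3p, miR-24-1-5p made up 8.08% in EXO2 replicate 2 and 0.034% in EXO2 replicate 3. Of 9 other arms listed, 7 were in the table. miR-23a-5p, miR-23b-5p, miR-27a-5p, miR-27b-5p and miR-26b-3p made up at most 2.27% of the reads of both arms in any library, and 3 of them were seen in few libraries. miR-23a-5p had 11, 19 and 0 reads and miR-26b-3p had 0, 13 and 53 reads in EXO1 replicates 1, 2 and 3, and both, like miR-23b-5p, were at 0 in EXO2, where 0 allows up to 3 reads (0.538 to 0.798 normalized CPM). miR-23b-5p, with 9 reads in EXO1 replicate 2 only, was not tested, and none of the other 6 passed an adjusted p of 0.05 or the thresholds of the methods.

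miR-24-2-5p comes from the a cluster and miR-24-1-5p from the b cluster. Unlike their shared 3′ arm, they can be told apart by reads that reach base 17. Shorter reads cannot be assigned, so the counts of these 5′ arms are uncertain to that extent. Both hairpins are shown with the 2 arms in capitals.
Mir24-2: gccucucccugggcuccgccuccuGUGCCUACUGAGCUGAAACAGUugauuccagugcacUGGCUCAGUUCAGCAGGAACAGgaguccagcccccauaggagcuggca
Mir24-1: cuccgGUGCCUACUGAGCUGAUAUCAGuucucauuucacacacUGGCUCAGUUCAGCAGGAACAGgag

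miR-24-1-5p and miR-24-2-5p shared bases 1 to 16 and differed at 5 of the last 6 positions (U17A, U19C, C20A, A21G and G22U, with the base of miR-24-1-5p first). miR-24-2-5p had levels of 1600, 140 and 55.9 in EXO1, against 147, 255 and 447 in EXO2. EXO1 replicate 1, the library dominated by muscle miRNAs, was the highest and EXO1 replicate 3 the lowest, so its order in EXO1 was opposite to that of miR-24-3p. Of the reads of miR-24-2-5p and miR-24-3p together, miR-24-2-5p made up 59.2%, 10.2% and 2.31% in EXO1, against 9.87%, 23.7% and 36.5% in EXO2. In EXO1 replicate 1 its 2525 reads exceeded the 1739 reads of miR-24-3p (95% Wilson interval of the share 57.7% to 60.7%, counting error only). In limma the change between the groups was 0.13 on the log2 scale (standard error 0.97, adjusted p = 0.942). Whether the muscle miRNAs had a part in this share was not tested.

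miR-24-1-5p had levels of 0.634, 13.4 and 16.1 in EXO1, against 52.5, 72.3 and 0.266 in EXO2. It was seen by 1 read each in EXO1 replicate 1 and EXO2 replicate 3 and by 62 to 403 reads in the other libraries, and in limma the change was 1.21 on the log2 scale (standard error 1.90, adjusted p = 0.740). As counted, the 5′ arms of Mir24-1 and Mir24-2 thus did not follow each other. miR-24-2-5p was highest in the libraries, EXO1 replicate 1 and EXO2 replicate 3, in which miR-24-1-5p was nearly absent.

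**Figure D5:**
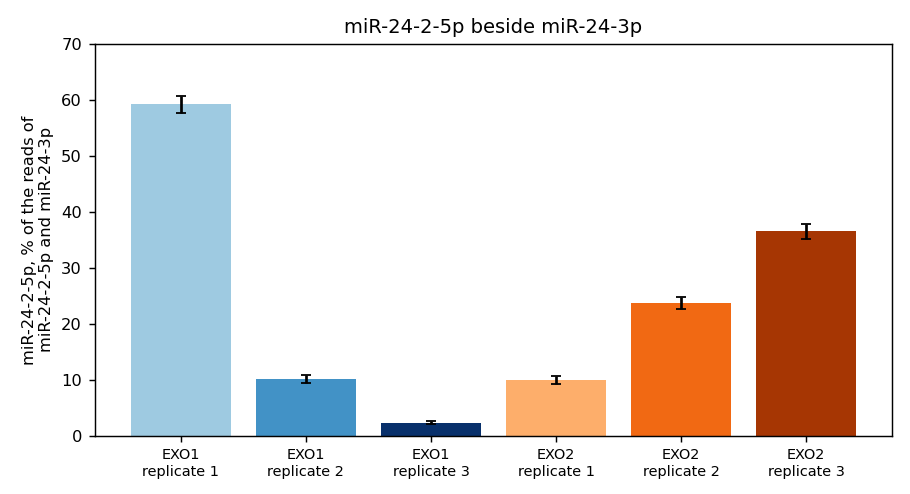
Reads of miR-24-2-5p as a percentage of the reads of miR-24-2-5p and miR-24-3p in each library, with 95% Wilson intervals that cover counting error only. The share runs from 2.31% in EXO1 replicate 3 to 59.2% in EXO1 replicate 1, and is 9.87% to 36.5% in EXO2.

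Across the 6 libraries, Pearson's r of log2(normalized CPM + 1) between pairs of the 7 miRNAs was 0.24 to 0.93 (21 pairs, median 0.69), highest for miR-26a-5p with miR-26b-5p. These points share library and scaling, and the values rest largely on EXO1 replicate 3. Without it the median was -0.13 and the range -0.83 to 0.88, again with the miR-26 pair at the top. The r of that pair then rests largely on EXO1 replicate 1, where both were well above the remaining libraries.

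Among the 145 miRNAs outside these families with at least 10 normalized CPM in every library, those whose pattern was most like each family were found by Pearson's r over the 6 libraries. For the miR-26 family they were miR-146a-5p (r = 0.99), the hepatocyte miRNA miR-122-5p (0.98) and miR-130a-3p (0.97), with r = 0.97, 0.97 and 0.93 when EXO1 replicate 3 was left out. Those last r rest largely on EXO1 replicate 1, where miR-26a-5p had 27419 normalized CPM, against 9047 to 10512 in the remaining libraries. The miRNAs were also picked by r over the same libraries, so leaving 1 out is no independent check. miR-122-5p had levels of 22072, 3095 and 48760 in EXO1, against 3526, 2071 and 2807 in EXO2. In normalized CPM it was thus high in the same EXO1 libraries as miR-26a-5p, and both values of EXO1 replicate 1 depend on its composition factor. The hepatocyte list, of which miR-122-5p is part, summed to 25135, 4932 and 63383 in EXO1, against 7247, 4737 and 5415 in EXO2. Not every miRNA of the list shared this pattern, since miR-194-5p was high in EXO1 replicate 3 only. It had 596, 535 and 4227 in EXO1, against 935, 977 and 755 in EXO2.

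For the miR-27 family they were miR-143-3p and miR-145-5p of smooth muscle and miR-199a-5p of fibroblasts (r = 0.99, 0.98 and 0.98, and 0.82, 0.72 and 0.71 without EXO1 replicate 3). miR-143-3p had levels of 5803, 10798 and 71664 in EXO1, against 6107, 6828 and 4665 in EXO2. For miR-24-3p they were miR-455-5p, miR-125a-5p and miR-146b-5p (r = 0.98, 0.96 and 0.92, and 0.92, 0.85 and 0.70 without that library). For the miR-23 family they were miR-194-5p, miR-181a-5p and miR-145-5p (r = 0.94, 0.92 and 0.92), which became 0.34, 0.76 and -0.26 without it.

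Each of the 7 miRNAs also served as a denominator for miR-451-5p, the most abundant erythroid miRNA, a ratio that is used with miR-23a-3p to judge red cell rupture in plasma. The difference in the mean log2 ratio between EXO2 and EXO1 was 2.32 with miR-23b-3p, 2.45 with miR-23a-3p, 2.71 with miR-27a-3p, 2.73 with miR-24-3p, 2.77 with miR-26b-5p, 2.96 with miR-27b-3p and 3.19 with miR-26a-5p. The level of miR-451-5p itself did not overlap between the groups and was higher in EXO2 (log2 fold change 2.09, standard error 0.94, adjusted p = 0.342 in limma), and all 7 ratios share it. For 6 of the 7 denominators every EXO2 ratio was above every EXO1 ratio (exact permutation test, p = 0.1, the smallest possible, adjusted p = 0.117 over the 7). Of all 222 miRNAs other than miR-451-5p above 0 in every library, the 7 included, taken as denominators in the same way, 93 (41.9%) separated the groups in this direction. With miR-27a-3p the groups overlapped, at 8.17, 5.71 and 3.94 in EXO1, against 7.83, 8.66 and 9.48 in EXO2 (p = 0.2, adjusted p = 0.2, exact permutation test).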

How the data were processed

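Small RNA of plasma exosomes was sequenced in 6 libraries (EXO1 and EXO2, n = 3 each). Adapters were removed by the authors, reads under 15 nucleotides were discarded and miRDeep2 assigned the rest to mature miRNAs. Tools named in the submitters' processing notes are cutadapt 1.14, Bowtie and edgeR 3.18.1, while the genome build and miRNA release were not given in the sources used here. Deposited signal values are headed CPM and equal reads divided by the total of all rows and a TMM factor, and 100% of values were whole multiples of 1 read (relative tolerance 1e-06), from which reads were computed. log2 group means deposited beside them were not used. These reads entered shares and intervals, and no count test was run on them.

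The table of 468 rows held 420 mature miRNAs, and of repeated names the row with the highest sum was kept. The 410 miRNAs with reads in 2 or more libraries entered limma 3.58.1 in R 4.3.3 on log2(value + 1), with a variance trend and Benjamini-Hochberg adjustment. This scale understates fold changes of low miRNAs. Within-library ratios were compared by exact permutation tests in scipy 1.17.1 (Python 3.11.15), adjusted over the 9 pairs. The fit was checked on simulated data with independent noise for each miRNA. They held no composition shifts between libraries, so the check does not cover these. Alternatives were other scalings, filters, pseudocounts (0.5 and 0.1), treatments of repeated rows, each miRNA's own variance, a replicate block, and each library left out in turn. The miRNAs, marker lists and pairs were chosen with earlier results of these data known. The miRNAs named were the 7, their other arms, for each family the 3 of highest Pearson's r, and miR-451-5p, miR-1b and miR-143-3p. miR-497-5p, named as the vascular marker at 0, lies outside this rule and was chosen after its values were seen. Reads carry no molecular identifiers, so intervals and floors cover counting error only. Sequences and positions are from RefSeq (GRCr8).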

Additional observations from a re-analysis of the deposited data

How the results depend on the processing

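The adjusted p of none of the 7 miRNAs passed 0.05 under any of 18 alternatives. The count of the 7 past the thresholds of the methods, 0 in all libraries, was 1 with RLE size factors (miR-26a-5p) and 0 to 2 when 1 library was left out, and the median log2 fold change was -0.85 to -0.11 then. The count over all miRNAs, 54, was 30 with scaling by library totals (8 higher and 22 lower, against 24 and 30, and 18 and 43 with RLE size factors) and 33 to 103 when 1 library was left out. The log2 fold change of miR-23b-3p was 0.079 with library totals. When 1 library was left out, that of miR-23a-3p ranged from -0.58 to 0.069 and that of miR-23b-3p from -0.57 to 0.43, both positive without EXO1 replicate 3. With both rows of miR-24-3p summed, several log2 ratios over 6 libraries passed an adjusted p of 0.05 by the exact sign-flip permutation test. They were miR-27a-3p to miR-27b-3p (-1.84), miR-26a-5p to miR-26b-5p (1.82), miR-23b-3p to miR-27b-3p (-2.65) and miR-24-3p to miR-23a-3p (1.31), miR-23b-3p (1.53) and miR-27b-3p (-1.12). That of miR-24-3p to miR-27a-3p also passed and turned to 0.72, because doubling miR-24-3p adds 1 to its ratios. The sum counts the same reads 2 times and is no support. The group difference of 3 ratios turned when 1 library was left out, with ranges of -0.36 to 0.053 for miR-23a-3p to miR-23b-3p, -0.21 to 0.29 for miR-24-3p to miR-27a-3p and -0.19 to 0.52 for miR-24-3p to miR-27b-3p. The replicate numbers did not pair the libraries (correlations of deviations -0.04, 0.06 and -0.12), and with the replicate block 41 miRNAs passed the thresholds of the methods, 0 of the 7 among them, and 2 passed an adjusted p of 0.05, none of the 7. Counting error is large for some other arms, since miR-24-1-5p had 1 read in 2 libraries. These low counts did not follow depth. EXO1 replicate 1, with 1 read, was the deepest library (5868405 miRNA reads), and the shallowest, EXO1 replicate 2 (2279500), had 62. Their cause was not tested. For the 7 miRNAs counting error was small beside the spread between libraries.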
